A study of Mus musculus with 6 samples.

Results

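The RUNX transcription factors, their shared partner and their corepressors were followed in RNA from mouse bone marrow cells that carry the surface receptor c-Kit, a marker of blood stem and progenitor cells. The members were chosen by family: the 3 RUNX genes Runx1, Runx2 and Runx3, the partner Cbfb, the ETO-family corepressors Cbfa2t2 and Cbfa2t3, and the Groucho-family corepressors Tle1, Tle3 and Tle4. All 9 were among the 20097 genes listed, and all 9 were among the 15410 genes tested. Each of the 6 libraries was polyadenylated RNA from c-Kit-positive marrow, 3 labelled WT (wild type) and 3 labelled Runx1 KO (Runx1 knockout), here called WT-labelled and KO-labelled libraries. The labels used here name no allele, promoter or Cre driver for the knockout, no age and no time since Runx1 was disrupted, and they do not say whether the 3 libraries of a group came from separate animals. The p-values therefore measure only the spread between these libraries, which may be technical.

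RUNX proteins bind DNA through a shared Runt domain, and CBFB, which does not touch DNA, binds that domain and strengthens its hold. RUNX1 is needed for the emergence of blood stem cells in the embryo and acts in many adult blood lineages, RUNX2 is best known for directing bone formation, and RUNX3 acts in T cell and natural killer cell development. The same proteins activate genes with acetyltransferases such as p300 and repress them with the ETO and TLE corepressors, which bring histone deacetylases.

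The RUNX genes are themselves known to carry RUNX binding sites at their distal promoter, the one farthest upstream. In the RefSeq promoter windows (GRCm38.p6, 250 bases before to 50 after each annotated start), the RUNX core motif TGTGGT, or ACCACA on the opposite strand, was found in 16.8% of 32851 windows of all genes. Among 13 windows of the 9 members it was found in 3: the distal windows of Runx1, Runx2 and Runx3, with 2, 3 and 2 matches. In each of these windows a pair of ACCACA copies stood with 2 bases between them, an arrangement noticed after the windows were read and present in 7 of the 32851 windows (0.0213%). The other 4 were a window that overlaps that of Runx3 and holds the same site, and windows of Gm12236, Gm15462 and Olfr24. The 3 sites are shown because the pair was in a window of every RUNX gene and of no other member. Each is given in 30 bases, 5′ to 3′ on the gene's strand, with the motif copies in capitals.
Runx1, chr16:92826025-92826054, minus strand: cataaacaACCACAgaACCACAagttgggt
Runx2, chr17:44814583-44814612, minus strand: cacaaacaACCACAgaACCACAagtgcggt
Runx3, chr4:135120503-135120532, plus strand: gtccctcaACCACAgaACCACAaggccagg
The Runx1 and Runx2 pairs began 29 and 24 bases into the transcript, counting the start as 1, and the Runx3 pair began 134 bases before the start. The GATA motif, AGATA or TGATA on either strand, was found in 43.8% of all windows and in 3 of the 13 member windows: the proximal window of Runx1, a window of Cbfa2t3 and that of Tle3. A match describes letters only; no binding was measured, and the gene-level values below do not separate the promoters of a gene.

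The 3 RUNX genes and Cbfa2t3 were higher in the KO-labelled libraries, and Cbfb, Tle1 and Tle3 were near the same level in both groups with overlapping values. Of the 9 members, 4 passed the test (limma, Benjamini-Hochberg adjusted p under 0.05), all 4 higher and 0 lower. At an unadjusted limma p under 0.05 there were 5 higher and 1 lower, Tle4, and edgeR and DESeq2 likewise called 4 higher and 0 lower after adjustment. Among all genes tested, 21.9% passed, 10.6% higher and 11.3% lower. The members' median change was 0.16 on the log2 scale, beside -0.0042 over all genes tested. The groups' values did not overlap for 6 of 9 members, 5 of them higher in the KO-labelled libraries. The same held for 43.3% of all genes tested, 21.4% with the KO-labelled libraries higher. No test was made of the difference between members' changes. The members were chosen with earlier results of these data known, so their count beside these shares is a description only. Values are normalised read counts, the reads of a gene divided by a size factor for its library, and changes are differences in log2 (value + 1).

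**Figure D1:**
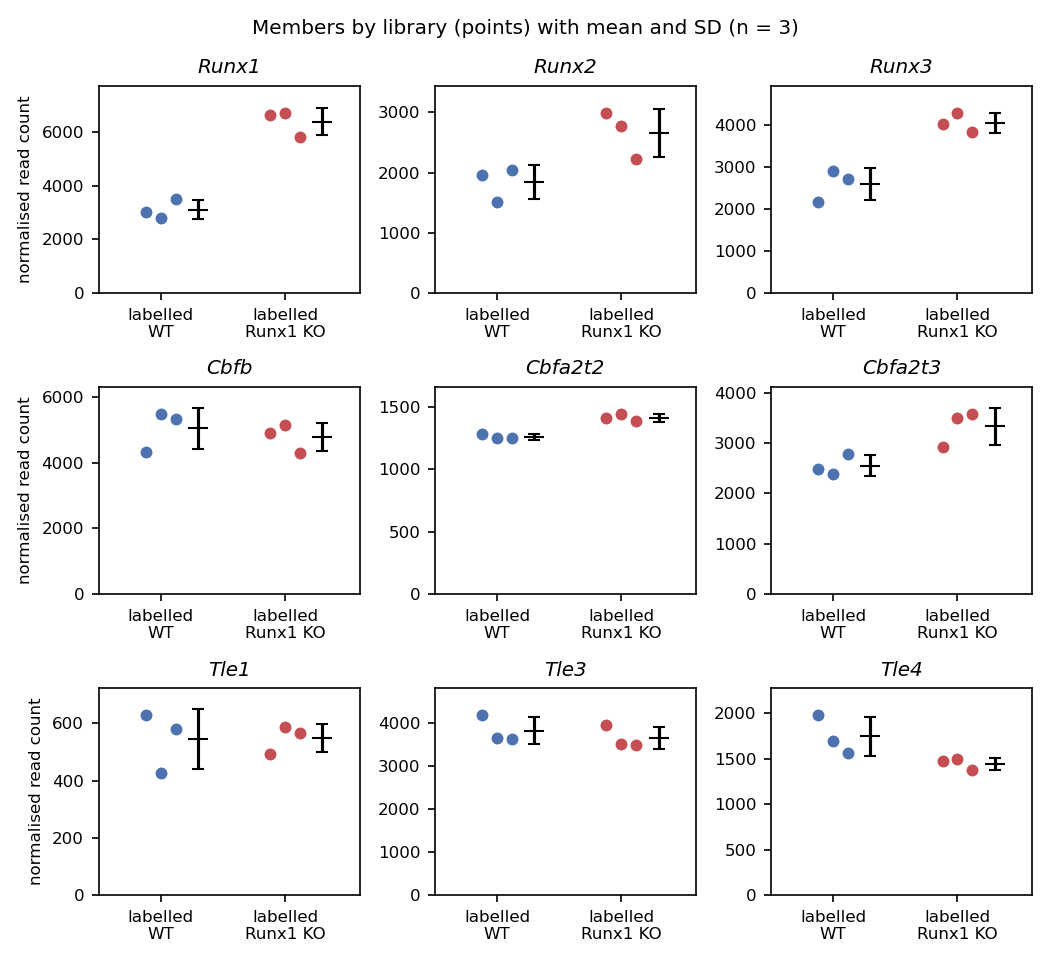
Normalised read count (vertical axis, from 0 in each panel) of the 9 members, 1 panel per gene, with a point for each library and, beside the points, the group mean with bars for the SD (n = 3). The KO-labelled points lie above the WT-labelled points for Runx1, Runx2, Runx3, Cbfa2t2 and Cbfa2t3, lie below them for Tle4, and overlap with them for Cbfb, Tle1 and Tle3.

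Runx1, the targeted gene, lies on the minus strand (chr16:92601466-92826149, GRCm38, ENSMUSG00000022952). Its normalised read counts were 3031, 2799 and 3497 in the WT-labelled libraries and 6648, 6720 and 5830 in KO-labelled ones. Every KO-labelled library was above every WT-labelled library, which goes against the label if read as a loss of Runx1 RNA. The mean rose from 3109 ± 356 to 6399 ± 494 (SD, n = 3 each), 2.06 times as high, a log2 change of 1.04 (SE 0.10, 95% interval 0.81 to 1.28, limma adjusted p = 0.00163). The deposited values are sums over a gene, so a deleted or frameshifted exon and the protein cannot be read from them.

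Runx2, the bone regulator of the family, was also read in every library (chr17:44495987-44814797, minus strand). Its values were 1960, 1519 and 2043 in the WT-labelled libraries and 2989, 2766 and 2224 in KO-labelled ones. The groups did not overlap, but the third KO-labelled library stood close to the highest labelled WT. The means were 1841 ± 282 and 2659 ± 393 (SD, n = 3 each), with a log2 change of 0.53 (SE 0.15, 95% interval 0.18 to 0.88, limma adjusted p = 0.0428). This call was lost when any library other than the third labelled Runx1 KO was left out. Without WT 1, WT 2 or WT 3 the limma adjusted p was 0.0644, 0.0992 or 0.0574, and without Runx1 KO 1 or 2 it was 0.0876 or 0.135.

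Runx3, a regulator of cytotoxic lymphocytes, lies on the plus strand (chr4:135120652-135177990). Its values were 2174, 2904 and 2713 in the WT-labelled libraries and 4025, 4280 and 3826 in KO-labelled ones. The lowest KO-labelled library was well above the highest labelled WT. The means were 2597 ± 378 and 4044 ± 228 (SD, n = 3 each), with a log2 change of 0.65 (SE 0.11, 95% interval 0.39 to 0.91, limma adjusted p = 0.00929). Runx1 and Runx3 kept their calls in all 6 fits that left out a library.

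Cbfb, the non-DNA-binding subunit, did not pass the test (chr8:105170674-105217989, plus strand). Its values were 4324, 5481 and 5315 in the WT-labelled libraries and 4888, 5136 and 4307 in KO-labelled ones. The lowest value of the 6 was in a KO-labelled library and the highest in one labelled WT, with the others interleaved. The log2 change was -0.07 (SE 0.11, 95% interval -0.33 to 0.18, limma adjusted p = 0.658), so the interval lies below the estimates for Runx1, Runx2 and Runx3.

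Per kilobase of exon, which allows levels of different genes to be compared, Cbfb was the most abundant member. In the WT-labelled libraries its level was 1448 ± 180 normalised reads per kb (SD, n = 3), beside 519 ± 75.6 for Runx3, 259 ± 29.6 for Runx1 and 208 ± 31.9 for Runx2. In the KO-labelled libraries the levels per kb were 1373 ± 122 for Cbfb, 808 ± 45.5 for Runx3, 532 ± 41.1 for Runx1 and 301 ± 44.5 for Runx2. The order of these 4 genes was therefore alike in both groups, and no neighbours in it overlapped. It depends on the length used: with the longest transcript in place of all exons, Runx1 overlapped with Runx3 in both groups and had the higher mean in the KO-labelled libraries.

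The summed RUNX level was higher in the KO-labelled libraries, and Cbfb did not pass the test. The sum of the 3 RUNX genes per kb was 908, 985 and 1064 in the WT-labelled libraries and 1696, 1727 and 1501 in KO-labelled ones. All 3 KO-labelled libraries were above all 3 labelled WT. Divided by Cbfb per kb, the sum gave ratios of 0.731, 0.625 and 0.697 in the WT-labelled libraries and 1.21, 1.17 and 1.21 in KO-labelled ones. The mean ratio was 0.684 ± 0.054 in the first group and 1.20 ± 0.023 in the second (SD, n = 3 each). In RNA per kb, the RUNX sum was thus below Cbfb in every WT-labelled library and above it in every KO-labelled library. The sum counts the RNA of Runx1, the targeted gene, in both groups, and these values do not show what protein that RNA gives. Without Runx1, the KO-labelled means of Runx2 (301 per kb) and Runx3 (808) together stayed below that of Cbfb (1373). With the longest transcript lengths the mean ratios were 0.856 and 1.54, so the groups lay on the same sides of 1. An exact two-sided permutation test of 3 against 3 libraries cannot go below p = 0.1, so none was made.

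**Figure D2:**
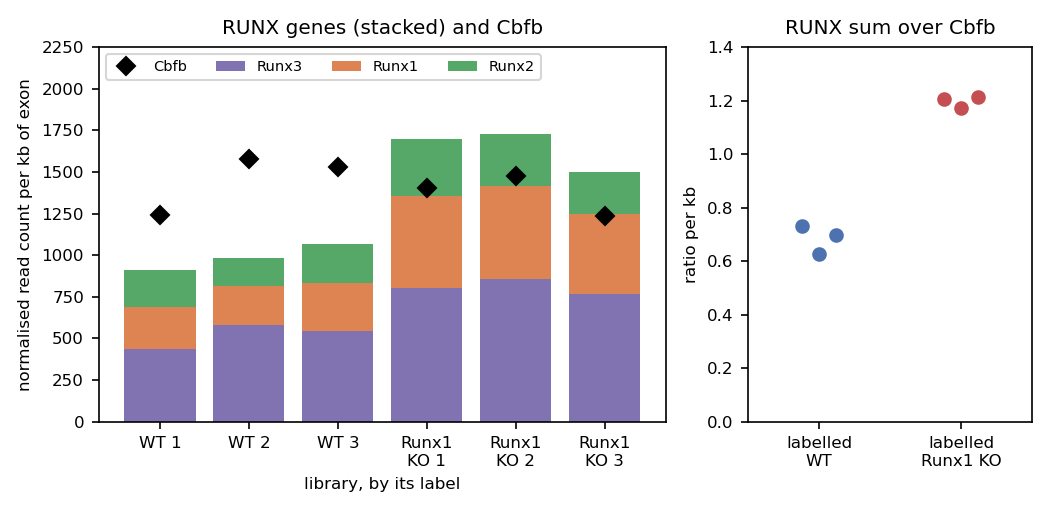
Left, level in normalised reads per kb of exon in each library, with Runx3, Runx1 and Runx2 stacked and Cbfb as a diamond; right, the ratio of the RUNX stack to Cbfb by group. The ratio lies between 0.625 and 0.731 in the WT-labelled libraries, where the diamonds stand above the stacks, and between 1.17 and 1.21 in the KO-labelled libraries, where they stand below the tops. The stack includes Runx1, the targeted gene, in both groups.

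Runx1 made up a larger share of the RUNX sum in every KO-labelled library. Its share of the per-kb sum was 27.7%, 23.6% and 27.3% in the WT-labelled libraries and 32.6%, 32.4% and 32.3% in KO-labelled ones, and the groups did not overlap. The mean share was 26.2% ± 2.27 and 32.4% ± 0.16 (SD, n = 3 each). The mean share of Runx2 was 21.2% and 18.3% and that of Runx3 52.6% and 49.3%, with overlapping values for both genes. Runx3 held the largest mean share in each group by exon length. With the longest transcript lengths the mean share of Runx1 was 35.7% and 42.9%.

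Of the ETO-family members, Cbfa2t3 (ETO2) passed the test and Cbfa2t2 (MTGR1) did not. Cbfa2t3 is a corepressor of the TAL1 and GATA1 complex in stem cells and erythroid and megakaryocyte progenitors (chr8:122625141-122699109, minus strand). Its values were 2475, 2382 and 2779 in the WT-labelled libraries and 2916, 3490 and 3575 in KO-labelled ones. The groups did not overlap, with the first KO-labelled library nearest to WT-labelled ones. The means were 2545 ± 207 and 3327 ± 359 (SD, n = 3 each), with a log2 change of 0.38 (SE 0.10, 95% interval 0.15 to 0.62, limma adjusted p = 0.0336). The call was lost without WT 1, WT 2, Runx1 KO 2 or Runx1 KO 3, with limma adjusted p of 0.0792, 0.0979, 0.122 and 0.112.

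Cbfa2t2 lies on chr2:154436481-154539356 on the plus strand. It had values of 1283, 1245 and 1245 in the WT-labelled libraries and 1407, 1440 and 1380 in KO-labelled ones. It was the least variable member, with a coefficient of variation of 1.74% and 2.12% in the WT-labelled and KO-labelled groups, and the groups did not overlap. The log2 change was 0.16 (SE 0.06, 95% interval 0.03 to 0.30, limma adjusted p = 0.0828). It passed under 2 of the alternatives that kept every library: an adjusted p of 0.0267 with limma on values scaled to library totals, and 0.0451 with limma after removal of library trends in GC content and length with a replicate block. Cbfa2t3 made up 67.6% ± 1.88 of the per-kb sum of these 2 genes in the WT-labelled libraries and 70.8% ± 2.38 in KO-labelled ones (SD, n = 3 each), with overlapping values.

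No TLE member passed the test by limma, edgeR or DESeq2 with adjustment, and 1, Tle4, had an unadjusted limma p under 0.05. Tle4, a corepressor that acts with RUNX and with PAX5 in B cells, had values of 1983, 1698 and 1566 in the WT-labelled libraries and 1471, 1496 and 1373 in KO-labelled ones (chr19:14448150-14598051, minus strand). Every KO-labelled library was lower than every WT-labelled library, though the test was not passed: a log2 change of -0.27 (SE 0.10, 95% interval -0.49 to -0.04, limma adjusted p = 0.0868). Tle3 (chr9:61372366-61418497, plus strand) had values of 4183, 3644 and 3626 against 3942, 3507 and 3477, which overlapped, with a log2 change of -0.07 (95% interval -0.26 to 0.13, limma adjusted p = 0.586). Tle1 (chr4:72117142-72200919, minus strand) had 629, 426 and 581 against 494, 586 and 566, also overlapping, with a log2 change of 0.02 (95% interval -0.35 to 0.40, limma adjusted p = 0.928). Tle1 was the lowest member, at 62.6 ± 12.2 and 63.0 ± 5.56 normalised reads per kb. The ratio of the RUNX sum to the TLE sum per kb was 1.43 ± 0.24 in the WT-labelled libraries and 2.61 ± 0.13 in KO-labelled ones (SD, n = 3 each).

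**Figure D3:**
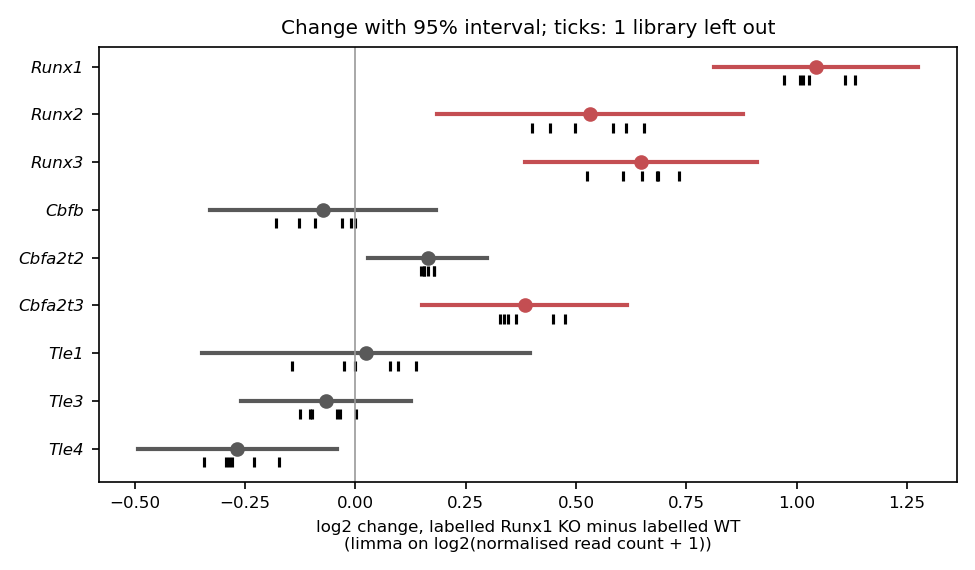
Log2 change of each member (horizontal axis, KO-labelled minus WT-labelled) as a point with its 95% interval, red where the limma adjusted p was under 0.05, with ticks beneath for the values when 1 library was left out. The intervals of Cbfb, Tle1 and Tle3 include 0, and the intervals of Cbfa2t2 and Tle4, unadjusted for the number of genes, exclude it although they did not pass.

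The order of all 9 members by level per kb changed for some neighbours. In the WT-labelled libraries, Cbfb and Runx3 came first, Tle3 (328 ± 27.2), Tle4 (307 ± 37.3), Cbfa2t3 (304 ± 24.8) and Runx1 followed with each overlapping its neighbour, and Runx2, Cbfa2t2 (145 ± 2.54) and Tle1 came last (normalised reads per kb, SD, n = 3). In the KO-labelled libraries, Runx1 followed Cbfb and Runx3, and Cbfa2t3 came next at 397 ± 42.8 per kb. Tle3 (313 ± 22.3), Runx2 and Tle4 (254 ± 11.3) followed, each overlapping its neighbour, and Cbfa2t2 (163 ± 3.45) and Tle1 came last. Over all libraries, the level per kb of Cbfb stood at the 93.8th percentile of tested genes, Runx3 at 83.7, Runx1 at 72.6, Cbfa2t2 at 49.2 and Tle1 at 32.9.

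Antisense transcripts share exon bases with 3 members, and no source used here states whether counting used strand. Gm26626 shares 106 bases with Runx1 and was at 12.1 ± 4.5 normalised reads in the WT-labelled libraries and 24.8 ± 9.1 in KO-labelled ones. Its groups overlapped, on 9 to 34 reads, and it did not pass (limma adjusted p = 0.112). Runx2os1 shares 519 bases with Runx2, was at 21.4 and 19.2, and did not pass either (limma adjusted p = 0.701). Gm10612 shares 295 bases with Cbfa2t3 and fell, from 27.9 ± 3.29 to 11.8 ± 2.55 (log2 change -1.19, SE 0.27, limma adjusted p = 0.0220), while Cbfa2t3 rose. All 3 were far below their partners in normalised reads.

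The markers of the marrow cell types differed between the groups, and in bulk RNA fewer cells of a type and less RNA per cell cannot be told apart. Markers are counted where the limma adjusted p was under 0.05, which held for 10.6% of all genes tested as higher and 11.3% as lower. Stem and multipotent cell markers were higher for 8 of 12, and their summed normalised reads ran from 20571 to 24261 in the WT-labelled libraries and from 31069 to 35696 in KO-labelled ones. Megakaryocyte markers were higher for 6 of 8. B lymphoid markers were lower for 7 of 10, with sums of 7377 to 30081 against 1158 to 3181. Markers of osteoblasts and stroma were lower for 5 of 7, with sums of 1252 to 1459 against 509 to 663. Of that list, Ibsp had at most 3 reads in each KO-labelled library. Plasmacytoid dendritic cell markers were lower for 3 of 8 and T and natural killer cell markers for 1 of 13, with sums of 7547 to 8488 against 4727 to 6360 for the latter. In both of these lists 0 markers had a positive log2 change, called or not, and the medians were -2.39 and -1.42. That was also so for the neutrophil, B lymphoid, and osteoblast and stroma lists, with medians of -1.51, -4.49 and -1.70. Neutrophil markers were lower for 9 of 12. Erythroid markers were higher for 1 and lower for 5 of 12, monocyte and macrophage markers higher for 1 and lower for 4 of 11, and basophil and mast cell markers lower for 5 of 9. Kit, the receptor used for the selection, was read in all libraries at 8301 ± 280 and 12649 ± 1093 normalised reads (SD, n = 3 each). What part cell makeup had in the members' changes was not tested.

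Library depth was similar, from 23297526 to 26793380 reads assigned to genes, and no member had fewer than 422 reads in a library. On the first principal component of all tested genes, which held 69.2% of the variance, the first KO-labelled library lay at 22.8 and the others at 64.5 and 60.8, against -65.0, -39.8 and -43.3 for WT-labelled ones. With library totals in place of the authors' size factors, 63.5% of called genes were higher, beside 48.4% as deposited, and with library trends in GC content and length removed, 59.1% were.

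The RNA of related genes was read from 6 lists with 99 tested genes. Of these lists, 1 holds genes described as RUNX targets. The others hold further family members, corepressor complex genes, coactivators and modifying enzymes, DNA-binding partners, and factors that recruit TLE. Of these 99, 38 passed the test, 20 higher and 18 lower (limma, Benjamini-Hochberg adjusted p under 0.05). Spi1, Cebpa, Gata2 and Pax5 are shared between lists and enter the 99 only once. Among all genes tested, 21.9% passed, 10.6% higher and 11.3% lower, and the count of each list below is to be read beside these shares. The counts of list genes depend on which libraries are kept. Without Runx1 KO 2, 19 passed, 10 higher and 9 lower, and without Runx1 KO 3, 25 passed, 16 higher and 9 lower. Without WT 1 or WT 3 the lower genes numbered 11 or 10.

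Few corepressor genes beyond the members passed the test. Of the other ETO and TLE family genes, 3 were tested, 0 passed by limma or edgeR and 1 fell by DESeq2, with 1 higher and 1 lower at an unadjusted limma p under 0.05: Tle2 had a log2 change of 0.49 (limma adjusted p = 0.181), Tle6 0.41 (0.127) and Aes -0.18 (0.0544). Runx1t1, which encodes ETO itself, was at 2.64 ± 2.07 normalised reads in the WT-labelled libraries and 1.32 ± 1.51 in KO-labelled ones. Both means were under the level of 3 reads, though WT 1 stood at 4.95, and the gene was not tested. Of 13 genes of histone deacetylase and nuclear corepressor complexes, 1 was higher and 0 lower by limma and edgeR, with a median log2 change of 0.03. DESeq2 called 1 lower, and at an unadjusted limma p under 0.05 the counts were 2 and 1.

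Of 28 tested RUNX coactivators and modifying enzymes, 4 were higher and 4 lower, with a median log2 change of 0.0050. Kmt2a, the histone methyltransferase MLL that binds RUNX1, rose from 4361 ± 198 to 8702 ± 1659 (log2 change 0.98, limma adjusted p = 0.00506). Smad5 and Smad1, transducers of bone morphogenetic protein signals, rose by 0.51 and 0.41, and the cell cycle kinase Cdk6 by 0.39. Ccnd3, the D-type cyclin that binds RUNX1, fell by 0.77 (limma adjusted p = 0.0016), with 6912, 6910 and 6356 normalised reads against 4257, 3885 and 3678. The kinase Mapk3 (ERK1) fell by 0.75, and the mitotic genes Cdc20 and Cdk1 fell by 0.35 and 0.30. The smaller calls were less stable: without Runx1 KO 2 the limma adjusted p was 0.05003 for Smad5, 0.0859 for Smad1, 0.0912 for Cdk6 and 0.0809 for Cdk1. Leaving out another library also ended the call for Smad5 (Runx1 KO 3), Smad1 (WT 2), Cdk6 (WT 1, WT 3 or Runx1 KO 3) and Cdk1 (any but WT 1), with limma adjusted p between 0.0528 and 0.0877. Removal of library trends in GC content and length gave 0.157 for Cdc20 and 0.139 for Cdk1, and limma with library totals gave 0.0819 for Cdk1.

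The DNA-binding partners of RUNX1 and ETO2 had the most calls for rises among the lists, 11 of 23, with 3 lower and a median log2 change of 0.24. Of all genes tested, 10.6% were higher. The lists were chosen with earlier results of these data known, so their ranking by calls is a description only. Gfi1b, a transcriptional repressor that acts in the erythroid and megakaryocyte lineages, had values of 1048, 1646 and 1416 against 2289, 2725 and 3943. Its log2 change was 1.11. The groups did not overlap. Zfpm1, the GATA cofactor FOG1, rose by 0.89 (limma adjusted p = 0.00381), Gata2 by 0.82 and Tal1, the basic helix-loop-helix factor that binds ETO2, by 0.72. Ets1, which binds DNA cooperatively with RUNX1 in lymphoid cells, fell by 2.35, from 3674 ± 882 to 736 ± 271 (limma adjusted p = 0.00279). Spi1 (PU.1) fell by 0.36 and Fli1 by 0.29. Without Runx1 KO 2 the limma adjusted p was 0.0555 for Gfi1b, 0.0555 for Gata2, 0.0654 for Tal1, 0.139 for Spi1 and 0.0674 for Fli1. Tal1 was also lost without WT 1 or WT 3, and Spi1 and Fli1 when any 1 WT-labelled library or Runx1 KO 3 was left out. With library totals the limma adjusted p was 0.0746 for Spi1 and 0.0569 for Fli1, and with edgeR it was 0.0518 for Spi1. Removal of library trends in GC content and length gave a limma adjusted p of 0.0587 for Fli1.

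Among 8 tested DNA-binding factors that recruit TLE proteins, 0 were higher and 2 lower by limma and edgeR, with a median log2 change of -0.78. At an unadjusted limma p under 0.05 there were 0 higher and 4 lower, and DESeq2 called those numbers after adjustment. Pax5, the B cell commitment factor, had 5967, 1304 and 2359 normalised reads in the WT-labelled libraries and 325, 27.8 and 27.9 in KO-labelled ones. The groups did not overlap, and the spread within each was wide (log2 change -5.35, SE 1.00, limma adjusted p = 0.0123). The Notch target Hes1 fell by 1.49, from 122.6 ± 40.0 to 44.4 ± 19.0 (limma adjusted p = 0.0424), a call lost without WT 1, WT 3, Runx1 KO 2 or Runx1 KO 3 (0.102, 0.116, 0.0980 and 0.0784). Lef1 and Tcf7, the Wnt-pathway factors of lymphoid progenitors, had log2 changes of -3.18 and -1.48 and did not pass (limma adjusted p = 0.0557 and 0.0523).

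Of 28 tested genes that are described as RUNX targets, 5 were higher and 11 lower, with a median log2 change of -0.36. Hmga2, a chromatin protein of fetal stem cells, rose from 131 ± 18.6 to 1431 ± 171 (log2 change 3.44, limma adjusted p = 0.00013). Alox12, a platelet lipoxygenase, rose by 2.83 from 15.1 ± 2.76 to 119 ± 50.9, and the protein kinase C gene Prkcq by 1.34. Blk, a B cell kinase, fell by 5.41, from 553 ± 402 to 11.97 ± 9.68. Ebf1, a B cell factor, fell by 4.60, and Gzmb, a granzyme of cytotoxic cells, fell by 4.31. Among the marker lists used here, Gzmb is in that of basophils and mast cells. The Ebf1 call was lost without WT 3, Runx1 KO 2 or Runx1 KO 3 (limma adjusted p 0.0507, 0.0718 and 0.0599) and with voom (0.0595). The Gzmb call was lost when any 1 WT-labelled library or Runx1 KO 2 was left out (limma adjusted p 0.0532 to 0.0726). Blk, Pax5 and Ebf1 are expressed by B lymphoid cells, whose 10 markers include Pax5 and Ebf1. Beyond the genes named above, Elane and Cebpe, both called lower, are also neutrophil markers, and Itga2b, called higher, is also a megakaryocyte marker.

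**Figure D4:**
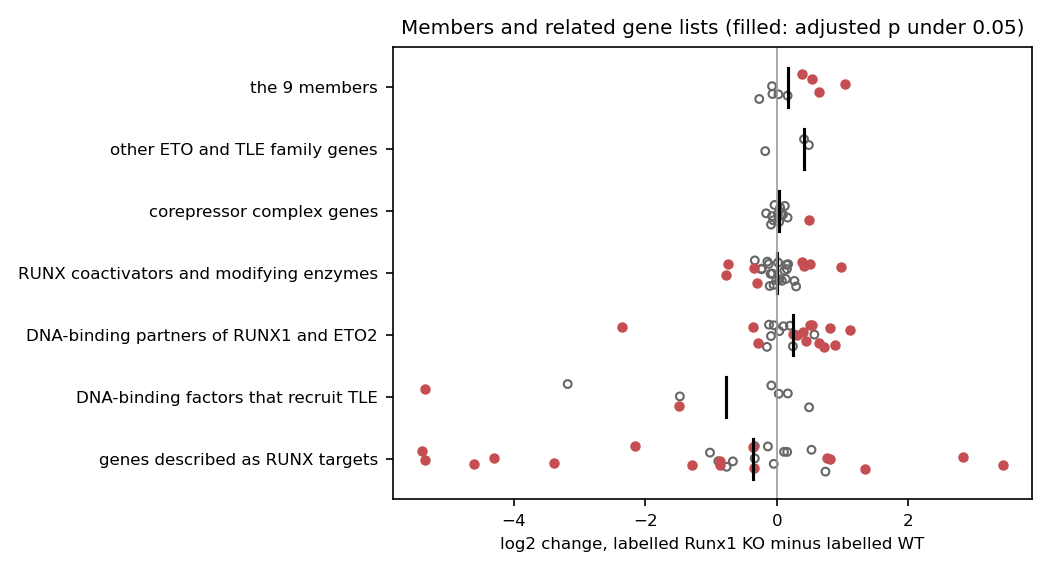
Log2 change (horizontal axis, KO-labelled minus WT-labelled) of each tested gene of the members and the 6 lists of related genes, 1 point per gene, filled where the limma adjusted p was under 0.05, with a black line at each list's median and vertical scatter for legibility only. The DNA-binding partners hold 11 filled points right of 0 and 3 left of it, and the factors that recruit TLE hold 0 and 2.

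The genes whose pattern over the 6 libraries was most like that of Runx1, by Pearson correlation of log2 values among 11199 genes with a mean of at least 100 normalised reads, were Ifi44 (0.999), Adgrl4 (0.999), Fndc3b (0.998), Mc5r (0.997) and Ccl24 (0.997). In all, 540 genes correlated above 0.95 with Runx1. For Cbfa2t3 they were Zfp60 (0.998), Ptpn23 (0.996), Trim65 (0.995), Zdhhc17 (0.994) and Qtrt2 (0.993), of 219 genes above 0.95. The 6 points are the same libraries in every correlation and fall into the 2 labelled groups, so any gene that differs between the groups correlates.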

How the data were processed

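RNA from 3 libraries labelled WT and 3 labelled Runx1 KO was sequenced by the authors from stranded, polyadenylated TruSeq libraries on a HiSeq2500, per the labels. The submitters' processing notes name HISAT2, HTSeq 0.9.1 and the mm10 (GRCm38) build; the annotation and the strand setting of counting are not given in the sources used here. The deposited signal values are gene read counts divided by a library size factor, made by the authors. Every positive value was a whole multiple, within 0.001, of its library's smallest, so reads were recovered (100% of values whole); 3 reads equal 2.88 to 3.14 normalised reads.

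Genes were kept by edgeR 4.0.16 filterByExpr (minimum count 10, minimum total 15), which left 15410. The main test was limma 3.58.1 (trend, two-sided, R 4.3.3) on log2 (value + 1), with Benjamini-Hochberg adjustment over all genes tested; edgeR on recovered reads called 3261 genes beside 3370. DESeq2 1.42.0, voom, other scalings, filters, pseudocounts, a replicate block and removal of GC content and length trends were alternatives, and each library was left out in turn. Exon lengths and gene coordinates came from GENCODE M21 (20086 genes matched) and promoter sequences from RefSeq GRCm38.p6. The 9 members were named with every library's value; from each list of related genes, all called genes were named up to 4 per direction, otherwise the 4 with the largest change; 1 gene that the rule picks is not reported here. Genes of like pattern were the 5 of highest correlation with Runx1 and with Cbfa2t3. The members and lists were chosen with earlier results of these data known. The floor of 3 reads covers counting error only, since PCR copies were not told apart.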

Additional observations from a re-analysis of the deposited data

How the results depend on the processing

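With every library kept, the 14 alternatives for the fit called 4 or 5 members, all higher, and 36 to 49 genes of the related lists, 20 to 28 higher and 15 to 24 lower. The log2 change of Runx1 was 1.04 to 1.13. Of the members' values under these alternatives, 122 kept direction and call, 2 were gained (Cbfa2t2) and 2 turned direction: scaling by library totals gave 0.0089 for Cbfb and 0.0153 for Tle3, where the median change of all genes shifted by 0.08. Leaving out a library left 2 to 3 members called, 2 to 3 higher, and 19 to 46 list genes, 10 to 21 higher and 9 to 25 lower. In all genes it left 1349 to 3551 calls, the lowest without Runx1 KO 2 and the highest without Runx1 KO 1, beside 3370 with all 6 libraries; the cause was not tested. Runx1 ran from 0.97 to 1.13, Tle1 from -0.14 to 0.14 and Tle3 from -0.13 to 0.00045. Of the 24 list genes that the naming rule picks, 11 kept their call in all 6 such fits. With the longest transcript in place of exon length, the RUNX sum per kb was 1484 and 2544, its ratio to Cbfb 0.856 and 1.54, the Runx1 share 35.7% and 42.9%, and the Cbfa2t3 share 61.6% and 65.1% (WT and Runx1 KO), because the lengths differ by construction.

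Same-numbered libraries deviated together with correlations of 0.287, 0.129 and -0.010, and 0.172 when pooled. The highest of all pairs was WT 1 with Runx1 KO 1 (0.287), while WT 2 correlated best with Runx1 KO 3 (0.235). The main fit did not take the numbers as pairs, and whether same-numbered libraries share a batch was not tested. With a replicate block, limma called 3843 genes, 4 members and 43 list genes, 21 higher and 22 lower; Runx1 changed by 1.04 (limma adjusted p = 0.00234). The block with GC content and length trends removed called 4510 genes, 5 members and 48 list genes. At the depth here the lowest member had 422 reads in a library, against 2.64 ± 2.07 normalised reads for Runx1t1, too few to test.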
